A study of Mus musculus with 8 samples.

Results

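The MAP kinase phosphatases described here are 10 genes of the Dusp family, chosen by symbol: Dusp1, Dusp2, Dusp4, Dusp5, Dusp6, Dusp7, Dusp8, Dusp10, Dusp14 and Dusp16. They were 10 of the 55471 genes in the exonic count table, and all 10 passed the filter on low counts in every comparison. RNA came from forebrain nuclei of male C57BL/6J mice, 6 to 8 weeks old, that carried CaMKIIalpha-Cre:SUN1-sfGFP. In this line Cre under the CaMKIIalpha promoter switches on a GFP-tagged nuclear envelope protein, and nuclei were pulled down with an anti-GFP antibody (INTACT), so that nuclei of excitatory neurons were collected. Strand-specific libraries were prepared from the polyadenylated RNA of these nuclei. The 4 Pilo samples came from mice given 1 mg/kg scopolamine methyl nitrate, a muscarinic antagonist, and 30 min later 340 mg/kg pilocarpine, a muscarinic agonist. Seizures developed for 100 min, and mice were kept when their seizures scored 3 to 5 by Racine's behavioural scale. The 4 Mock samples came from mice given the same scopolamine dose and then saline, with no selection by seizure score, so effects of the drug and of the seizure cannot be told apart.

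These enzymes switch off MAP kinases, which are active only while a threonine and a tyrosine of their activation loop both carry phosphate, by removing both phosphates. Several of the genes are themselves transcribed in response to MAP kinase signalling, which makes them feedback inhibitors, and in neurons synaptic activity and seizures are known to induce some of them. The family is commonly divided by place and substrate. Dusp1, Dusp2, Dusp4 and Dusp5 encode nuclear enzymes, of which Dusp5 prefers ERK and Dusp1 also acts on p38 and JNK. Dusp6 and Dusp7 encode cytoplasmic enzymes that prefer ERK, whereas Dusp8, Dusp10 and Dusp16 encode enzymes that prefer the stress kinases JNK and p38. Dusp14 encodes a small enzyme without the kinase-binding domain of the others and was kept apart from the 3 classes.

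Exonic totals were 29356788 to 36161448 counts per library, and in a second table, which separates regions, 27135364 to 33715773 exonic and 11928054 to 16703475 intronic counts. No label ties a sample to its own mouse, and the p-values therefore rest on a spread among samples that may be technical. In each group the numbers 2 and 3 had changed places from one table to the other, and each test was kept within a table. Summed markers of excitatory neurons were 2600 to 3150 CPM in Pilo and 2310 to 2940 CPM in Mock, where CPM is the count scaled by library total and TMM factor, and 4 of 7 rose. Inhibitory markers summed to 161 to 256 CPM in Pilo and 127 to 163 CPM in Mock (2 of 8 rose, Gad1 and Gad2), and oligodendrocyte markers to 359 to 641 CPM in Pilo and 279 to 380 CPM in Mock (1 of 5 rose, Mbp). Astrocyte markers summed to 114 to 304 CPM in Pilo and 111 to 234 CPM in Mock, microglial markers to 10.5 to 16.9 CPM in Pilo and 9.51 to 14.1 CPM in Mock, and markers of endothelial cells and pericytes to 13.9 to 78.6 CPM in Pilo and 11.8 to 31.9 CPM in Mock; none of these rose or fell in exonic counts. Over all genes tested, 15.6% were higher and 16.2% lower in exonic counts. Fewer cells of a type and less RNA per cell cannot be told apart in these bulk samples, and the part of other cell types in the values below was not tested.

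Sequence upstream of the start was available for 9 of the 10 genes, from RefSeq (GRCm38.p6, the build called mm10). 4 are printed because they pair the largest changes with a gene that did not change in its exons: Dusp1 and Dusp5, nuclear enzymes that rose most; Dusp6, which rose without any of the motifs searched; and Dusp8. Each runs 5′ to 3′ on the gene's strand and leaves out annotated exons of that gene. Exons of other genes were not left out, and the Dusp5 stretch lies inside the antisense gene AC137853.2. Dusp1 is chr17:26508520-26508722 (minus strand, inside the long GENCODE model of the gene), Dusp5 chr19:53528895-53529108 (plus), Dusp6 chr10:99262981-99263230 (plus) and Dusp8 chr7:142095285-142095534 (minus, upstream of one annotated start and inside a longer model). Capitals mark the cyclic AMP response element TGACGTCA and its shorter form TGACG (in Dusp5 on the other strand, as CGTCA), the sites of CREB factors, and in Dusp5 also the CArG box, the site of serum response factor.
Dusp1: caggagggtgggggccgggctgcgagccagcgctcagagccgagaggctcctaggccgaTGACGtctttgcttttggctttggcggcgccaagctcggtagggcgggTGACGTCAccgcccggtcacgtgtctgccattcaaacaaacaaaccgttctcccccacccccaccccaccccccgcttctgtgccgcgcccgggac
Dusp5: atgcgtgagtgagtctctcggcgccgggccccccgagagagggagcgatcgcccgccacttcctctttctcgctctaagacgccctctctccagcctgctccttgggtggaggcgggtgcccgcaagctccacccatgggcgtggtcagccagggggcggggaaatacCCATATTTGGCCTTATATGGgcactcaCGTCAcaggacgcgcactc
Dusp6: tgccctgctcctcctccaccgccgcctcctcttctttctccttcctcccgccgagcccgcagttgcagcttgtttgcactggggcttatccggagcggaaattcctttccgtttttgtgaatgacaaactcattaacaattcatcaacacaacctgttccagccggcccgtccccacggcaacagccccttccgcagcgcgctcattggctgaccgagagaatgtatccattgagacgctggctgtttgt
Dusp8: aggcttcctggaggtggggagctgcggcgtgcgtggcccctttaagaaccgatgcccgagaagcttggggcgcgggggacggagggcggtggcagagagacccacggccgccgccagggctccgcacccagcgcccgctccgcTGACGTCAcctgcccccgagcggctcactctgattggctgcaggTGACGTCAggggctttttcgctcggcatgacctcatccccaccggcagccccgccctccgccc

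The motifs TGACGTCA, TGACG, CArG box and TGANTCA (the AP-1 site) were searched on both strands from 250 bases before to 50 bases after the start, and TGACG also lies within every TGACGTCA. Dusp1 held TGACGTCA at base -143, counted from the start, and a further TGACG at -191. In Dusp5, adjoining CArG boxes began at -82 and -72, with TGACG on the other strand at -55. Dusp8 held TGACGTCA at -107 and again at -63. Of 27025 promoters of the same length, 1.88% held TGACGTCA, 21.0% held TGACG, 1.57% held a CArG box and 7.93% held TGANTCA. The shorter TGACG was also present in Dusp16 (-70) and Dusp2 (on the other strand, at 6), while Dusp6, Dusp7, Dusp10 and Dusp14 held none of these letters in the window. The windows of Dusp10, Dusp14 and Dusp16 lie inside longer annotated models of their genes. In Dusp14 only the first 27 bases come before an annotated exon, so sequence upstream of its longest model was not searched. A match is a description of the sequence and not a measured site, and the motifs were chosen with results of these data known.

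Among exonic counts, 7 of the 10 genes rose in Pilo nuclei and none fell (edgeR quasi-likelihood test, adjusted p under 0.05 over 19176 genes), against 15.6% of all genes higher and 16.2% lower, 31.8% in all. At an unadjusted p under 0.05 the count was 9 of 10, with Dusp7 lower, against 41.6% of all genes. The groups did not overlap in 8 of the 10 genes, against 32.0% of all genes. Dusp10 was the narrowest of these, with 1.436 CPM in its lowest Pilo library and 1.426 CPM in its highest Mock library. In the exonic columns of the second table the same 7 genes rose and none fell, against 16.5% of 14239 genes higher and 17.5% lower, 34.0% in all. There the groups of Dusp10 overlapped, with 1.524 CPM in the lowest Pilo library and 1.549 CPM in the highest Mock library. The median log2 fold change, Pilo over Mock, was 1.07 for the 10 genes and 0.0050 for all genes tested. All 4 nuclear enzymes rose, with a median of 1.81. Of the cytoplasmic ERK enzymes Dusp6 rose and Dusp7 did not pass, and of the stress kinase enzymes Dusp16 rose while Dusp8 and Dusp10 did not pass.

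**Figure D1:**
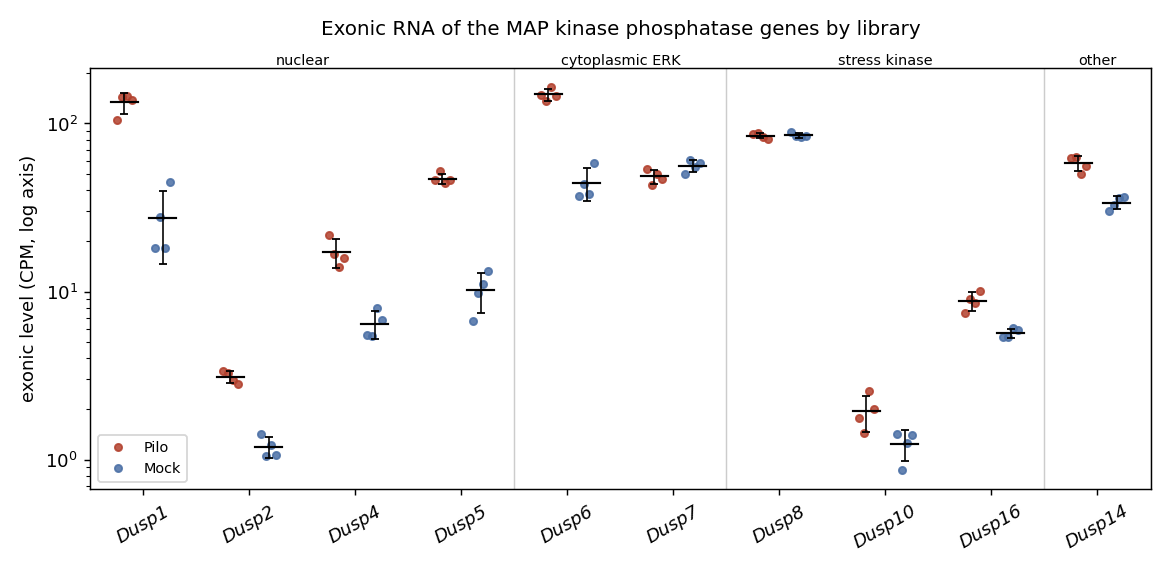
Exonic level of the 10 genes in each library, in CPM on a log axis; points are libraries, bars the mean and whiskers the SD (n = 4 Pilo and 4 Mock). Dusp1, Dusp2, Dusp4, Dusp5, Dusp6, Dusp16 and Dusp14 separate the groups, Dusp10 only just, and Dusp7 and Dusp8 overlap.

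Dusp1, the nuclear phosphatase with the broadest substrate range of these, had 105.5, 144.3, 145.7 and 137.7 CPM in the Pilo samples, against 18.2, 27.7, 18.1 and 44.9 CPM in the Mock samples. All Pilo libraries lay above all Mock libraries, Pilo 1 was the lowest of its group and Mock 4 the highest of its group. The means were 133.3 ± 18.9 CPM in Pilo and 27.2 ± 12.6 CPM in Mock (SD, n = 4 each), giving a log2 fold change of 2.29 ± 0.31 (SE; edgeR adjusted p = 0.00132). Without Mock 4 it was 2.65 ± 0.18. Mock 4 also had the highest Mock level of the activity-induced genes Fos (29.2 CPM, against 8.29 to 12.7 CPM in the other Mock libraries) and Arc (244 CPM, against 70.9 to 120 CPM). Reads of Ergic1, antisense over the longest Dusp1 model, were 77.3 to 85.5 CPM in Pilo and 67.1 to 70.9 CPM in Mock, and the sources used here do not give the strand setting of the counting.

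Dusp5, the nuclear enzyme that prefers ERK, had 45.9, 51.9, 44.1 and 46.3 CPM in Pilo, against 6.70, 9.80, 11.1 and 13.2 CPM in Mock. The groups lay far apart, and Mock 4 was again the highest Mock library. The log2 fold change was 2.20 ± 0.16 (SE; edgeR adjusted p = 4.28e-06). The antisense gene AC137853.2, which overlaps its first exon, had 1.34 to 2.72 CPM in Pilo and 0.641 to 1.07 CPM in Mock, below the Dusp5 level in every library.

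Dusp4, a nuclear enzyme that acts on ERK and JNK, had 21.8, 16.8, 14.1 and 15.8 CPM in Pilo, against 5.51, 5.41, 7.96 and 6.77 CPM in Mock. Dusp2, a nuclear enzyme first known from immune cells, was scarcer, with 3.37, 3.26, 2.97 and 2.82 CPM in Pilo and 1.43, 1.06, 1.23 and 1.07 CPM in Mock. In both genes every Pilo library was above every Mock library. The log2 fold change of Dusp4 was 1.41 ± 0.16 (SE; edgeR adjusted p = 3.6e-05). That of Dusp2 was 1.37 ± 0.18 (SE; edgeR adjusted p = 9.82e-05).

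Dusp6, the cytoplasmic ERK phosphatase, had 147.9, 136.6, 165.3 and 145.0 CPM in Pilo, against 36.9, 43.7, 38.1 and 58.2 CPM in Mock. No library of one group came near the other, and Mock 4 was the highest Mock library. The means were 148.7 ± 12.1 CPM in Pilo and 44.3 ± 9.8 CPM in Mock (SD, n = 4 each), with a log2 fold change of 1.75 ± 0.13 (SE; edgeR adjusted p = 4.13e-06). Dusp7, the other cytoplasmic ERK phosphatase, had 53.5, 43.0, 50.2 and 46.9 CPM in Pilo and 50.3, 60.3, 55.3 and 58.2 CPM in Mock. Pilo 1 was above the lowest Mock library, so the groups overlapped. Its log2 fold change of -0.21 ± 0.09 (SE; edgeR adjusted p = 0.0783) did not pass, but it passed with the replicate block, a term for the library number (-0.21, adjusted p = 0.0344) and without Pilo 1 (-0.26, adjusted p = 0.0352).

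Of the stress kinase enzymes, Dusp8 had 86.2, 88.0, 83.3 and 81.3 CPM in Pilo and 88.5, 83.7, 83.2 and 83.8 CPM in Mock. The groups overlapped almost wholly, with means of 84.7 ± 3.0 CPM in Pilo and 84.8 ± 2.5 CPM in Mock (SD, n = 4 each). The log2 fold change was -0.0015 ± 0.065 (SE; edgeR adjusted p = 0.989). Dusp16 had 7.43, 9.01, 8.55 and 10.1 CPM in Pilo, against 5.37, 5.35, 6.07 and 5.87 CPM in Mock, with no overlap and a log2 fold change of 0.63 ± 0.13 (SE; edgeR adjusted p = 0.00199). Dusp10 was the scarcest of the 10 and had 1.77, 1.44, 2.55 and 1.99 CPM in Pilo, against 1.43, 0.865, 1.25 and 1.41 CPM in Mock. Pilo 2 and Mock 1 lay almost level. The log2 fold change of 0.64 ± 0.24 (SE) did not pass (edgeR adjusted p = 0.0517), though it passed with the replicate block (adjusted p = 0.0113), with other size factors (0.0487), in DESeq2 (0.0472) and without Pilo 2 (0.0318). It did not pass with no filter on low counts (edgeR adjusted p = 0.0624) or in the exonic columns of the second table (0.0702). Nor did it pass when any other single library was left out (edgeR adjusted p = 0.0606 to 0.138). Dusp14, the small enzyme outside the classes, had 62.2, 62.9, 50.1 and 56.1 CPM in Pilo, against 30.3, 32.6, 36.2 and 36.5 CPM in Mock. Its groups did not overlap and its log2 fold change was 0.77 ± 0.09 (SE; edgeR adjusted p = 5.46e-05).

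Members of a class were set against each other within each library, as the difference of their log2(CPM + 0.1) levels, in 10 pairs. The Dusp6 to Dusp7 ratio was 1.62 ± 0.11 in Pilo and -0.36 ± 0.24 in Mock (SD, n = 4 each, log2), a difference of 1.98. The groups did not overlap (exact permutation test, two-sided, p = 0.0286, the smallest that 4 against 4 allows, and 0.0714 when adjusted over the 10 pairs). The same p-values held for Dusp2 to Dusp5 (-0.92), Dusp4 to Dusp5 (-0.83) and Dusp8 to Dusp16 (-0.62). The Dusp1 to Dusp5 ratio was 1.49 ± 0.22 in Pilo and 1.34 ± 0.46 in Mock, a difference of 0.15 (exact permutation test, p = 0.629). No pair passed after adjustment, and 4 of 10 did at an unadjusted p under 0.05.

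Levels were then compared between genes per kilobase of exon, as CPM per kb, from the GENCODE vM21 model. In Pilo the order was led by Dusp6 (47.5 ± 3.9 CPM per kb), Dusp1 (40.3 ± 5.7) and Dusp14 (29.7 ± 3.1; SD, n = 4), and the ranges of neighbours in that order overlapped. Dusp5 (19.0), Dusp8 (17.4), Dusp7 (14.4), Dusp4 (6.25), Dusp2 (1.55), Dusp16 (1.12) and Dusp10 (0.637 CPM per kb) followed, and of these neighbours Dusp5 and Dusp8 overlapped. In Mock the highest were Dusp8 (17.4 ± 0.5), Dusp14 (17.4 ± 1.5), Dusp7 (16.7 ± 1.3) and Dusp6 (14.1 ± 3.1 CPM per kb), each overlapping the next, and Dusp6 overlapped Dusp1 (8.22 ± 3.8). Below them came Dusp5 (4.12) and Dusp4 (2.34), which overlapped, Dusp16 (0.727) and Dusp2 (0.597), which overlapped, and Dusp10 (0.407 CPM per kb).

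Summed over the 10 genes, the level was 177.9 ± 3.5 CPM per kb in Pilo and 82.1 ± 9.4 CPM per kb in Mock (SD, n = 4 each). The nuclear enzymes held 67.1 ± 5.1 CPM per kb in Pilo and 15.3 ± 4.7 in Mock, which was 37.7% of the sum in Pilo and 18.3% in Mock. The cytoplasmic ERK enzymes held 61.9 ± 4.8 CPM per kb in Pilo and 30.8 ± 4.0 in Mock, with shares of 34.8% in Pilo and 37.5% in Mock. The stress kinase enzymes held 19.2 ± 0.4 CPM per kb in Pilo and 18.5 ± 0.5 in Mock, so that their share was 10.8% in Pilo and 22.8% in Mock. Single genes carried much of these sums. Dusp8 had 17.4 CPM per kb in each group, so the stress kinase sum says little of Dusp10 and Dusp16. Dusp6 had 47.5 CPM per kb in Pilo and 14.1 in Mock, and Dusp7 14.4 in Pilo and 16.7 in Mock. Dusp1 was the largest part of the nuclear sum, with 40.3 CPM per kb in Pilo and 8.22 in Mock. The sums describe the RNA of the genes and were not tested.

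**Figure D2:**
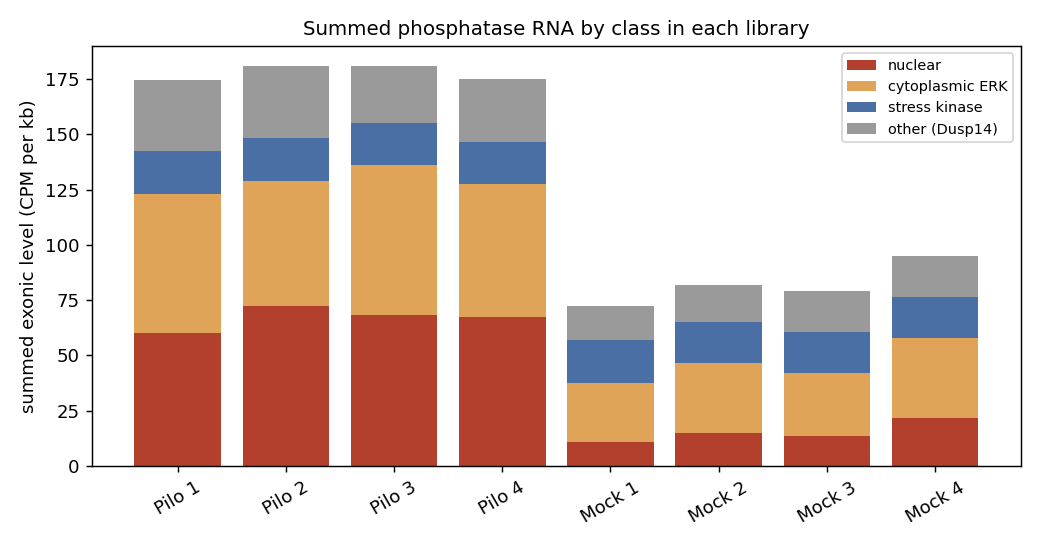
Summed exonic level of each class in CPM per kb, stacked, in the 4 Pilo libraries and then the 4 Mock libraries. The nuclear block is the one that differs most, with 60.0 to 72.3 CPM per kb in Pilo and 10.9 to 21.9 CPM per kb in Mock.

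Intronic counts, which come largely from RNA not yet spliced, rose in 7 of the 10 genes and fell in 2 (edgeR quasi-likelihood test), against 19.6% of 13318 genes higher and 21.9% lower, 41.4% in all. The median log2 fold change was 1.02 for the 10 genes and -0.0038 for all genes. Scaling the introns by the exonic factors, an alternative added after seeing the data, put the median of all genes at -0.25 and gave 1114 genes higher and 5173 lower in place of 2609 and 2911, yet left the calls on the 10 genes as they were. The groups did not overlap in 9 of the 10 genes, against 37.0% of all genes. Markers of other cell types also rose in introns: 4 of 7 inhibitory markers (Gad1, Gad2, Sst and Vip), Gfap of astrocytes (log2 fold change 1.55 ± 0.34, SE; edgeR adjusted p = 0.00247), Mbp of oligodendrocytes (0.91 ± 0.17; edgeR adjusted p = 0.00057) and Cx3cr1 of microglia (0.93 ± 0.10; edgeR adjusted p = 6.12e-06). Their part in the intronic results was not tested.

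Intronic Dusp5 was 67.1, 74.2, 91.0 and 69.7 CPM in Pilo and 12.1, 17.2, 19.3 and 24.6 CPM in Mock. Intronic Dusp6 was 66.5, 83.5, 59.8 and 64.2 CPM in Pilo and 13.1, 12.03, 18.6 and 26.1 CPM in Mock. Intronic Dusp1 was 24.1, 30.4, 28.4 and 28.4 CPM in Pilo and 9.57, 12.1, 12.4 and 12.5 CPM in Mock. In all of these every Pilo library was above every Mock library. The log2 fold change was 2.04 ± 0.18 for Dusp5, 1.97 ± 0.21 for Dusp6 and 1.25 ± 0.14 for Dusp1 (SE; edgeR adjusted p = 8.88e-07, 7.23e-06 and 7.3e-06 in that order).

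Dusp7 and Dusp8, whose exonic counts did not pass the test, fell in their introns. Intronic Dusp7 was 37.7, 33.1, 29.1 and 27.5 CPM in Pilo, against 52.1, 57.1, 65.6 and 50.3 CPM in Mock. Intronic Dusp8 was 29.3, 26.5, 27.9 and 28.4 CPM in Pilo, against 47.3, 44.0, 41.0 and 40.9 CPM in Mock. In both genes all 4 Pilo libraries lay below all 4 Mock libraries. The log2 fold change was -0.82 ± 0.13 for Dusp7 (SE; edgeR adjusted p = 0.000149) and -0.63 ± 0.11 for Dusp8 (SE; edgeR adjusted p = 0.000303). Gm32786, antisense to the start of Dusp8, had 0.8 to 1.17 exonic CPM in Pilo and 0.838 to 1.12 in Mock.

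Of the other genes, intronic Dusp4 rose by 0.91 ± 0.17 on the log2 scale, Dusp14 by 0.62 ± 0.11 and Dusp2 by 1.44 ± 0.39 (SE; edgeR adjusted p = 0.000488, 0.000412 and 0.00695 in that order). Intronic Dusp2 rested on 4 to 20 counts per library. Intronic Dusp10, at 1.33 to 2.31 CPM in Pilo and 0.429 to 0.974 CPM in Mock, rose by 1.13 ± 0.35 (edgeR adjusted p = 0.0167). That call ended without Mock 1 (edgeR adjusted p = 0.0551) or without Pilo 2 (0.06). Intronic libraries carry the numbers of the second table, and this Pilo 2 matched Pilo 3 of the exonic table. Intronic Dusp16 did not pass, at 0.34 ± 0.19 (SE; edgeR adjusted p = 0.164), and its groups overlapped.

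**Figure D3:**
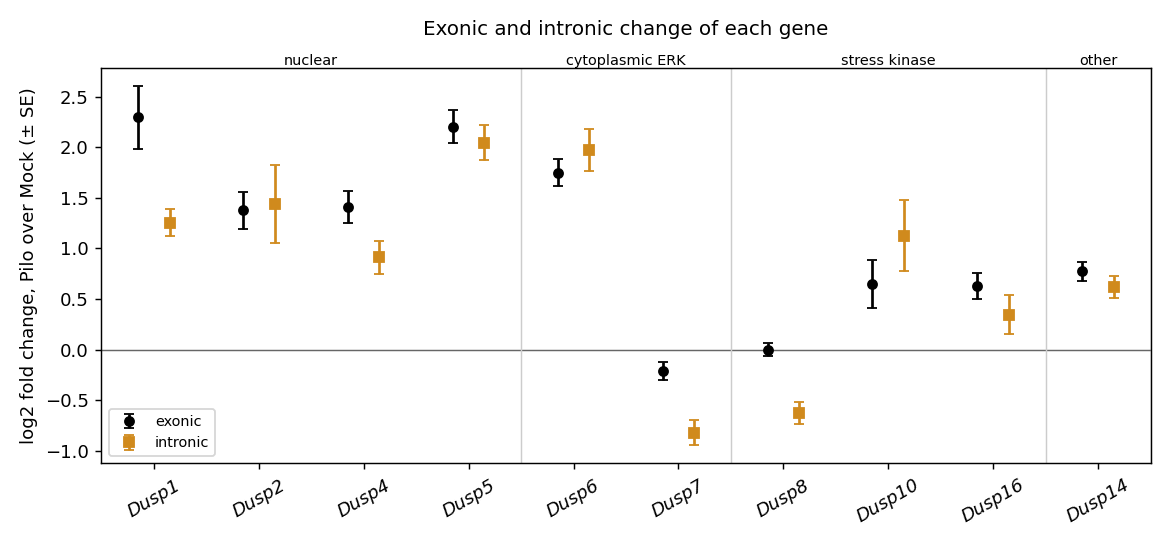
Log2 fold change, Pilo over Mock, of each gene in exonic and in intronic counts, with whiskers of 1 SE. Exonic Dusp8 sits at -0.0015 and its intronic value at -0.63, and for Dusp1 the exonic value of 2.29 lies above the intronic value of 1.25.

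Whether the exonic and intronic changes differed was tested directly, as an interaction of region with treatment in the second table. The difference, exonic minus intronic, was positive and passed in 4 of the 10 genes and was negative and passed in none (edgeR quasi-likelihood test), against 13.5% of 13047 genes positive and 12.8% negative, 26.2% in all. At an unadjusted p under 0.05 the count was 5 of 10, against 38.2% of all genes. It was 1.09 ± 0.20 for Dusp1 (SE; adjusted p = 0.00293), 0.60 ± 0.07 for Dusp8 (adjusted p = 8.79e-05) and 0.58 ± 0.09 for Dusp7 (adjusted p = 0.000539). For Dusp4 it was 0.48 ± 0.14 (adjusted p = 0.0183), which ended without Mock 1 (0.0594) or Mock 3 (0.05003). This Mock 3, numbered as in the second table, matched Mock 2 of the exonic table. For Dusp5 the difference was 0.14 ± 0.10 and did not pass (adjusted p = 0.335). Dusp6 had the opposite sign, -0.27 ± 0.10 (adjusted p = 0.0679), and passed with the replicate block (0.0354) or without Mock 4 (0.029). With introns scaled by the exonic factors the median difference of all genes was 0.26 in place of 0.0092, 5822 genes were positive and 406 negative in place of 1756 and 1664, and 7 of the 10 genes passed, Dusp5, Dusp14 and Dusp16 being added.

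As a share of a gene's own exonic and intronic counts, introns made up 7.66% ± 0.48 of Dusp1 in Pilo and 17.9% ± 4.9 in Mock (SD, n = 4 each). For Dusp7 the share was 20.6% ± 1.5 in Pilo and 31.6% ± 1.5 in Mock, and for Dusp8 11.6% ± 0.7 in Pilo and 19.1% ± 0.9 in Mock. In these genes, and in Dusp4, Dusp14 and Dusp16, every Pilo library was below every Mock library (exact permutation test, two-sided, p = 0.0286 each, the smallest possible, and 0.0476 adjusted over the 10 genes). That is 6 of 10 genes, where 39.0% of all genes had Pilo below Mock with no overlap; none of the 10 had Pilo above Mock with no overlap, against 2.69% of all genes (41.7% in either direction). The share of the whole library moved the same way, 29.2% to 30.6% in Pilo and 31.9% to 33.7% in Mock, and its part in these results was not tested. Dusp6 had a share of 15.3% ± 0.4 in Pilo and 15.1% ± 2.2 in Mock (exact permutation test, p = 0.83), and that of Dusp5 was 38.7% ± 2.3 in Pilo and 45.2% ± 2.6 in Mock (p = 0.0571, exact permutation test).

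**Figure D4:**
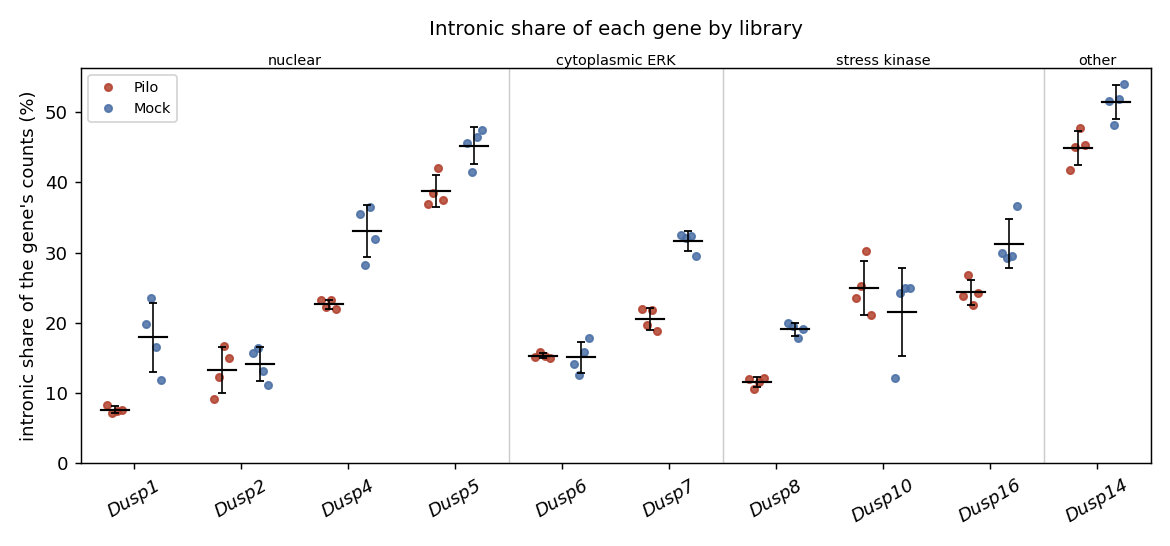
Intronic share of each gene's counts in percent, by library, with the mean and SD (n = 4 per group). Dusp1, Dusp4, Dusp7, Dusp8, Dusp14 and Dusp16 have all Pilo libraries below all Mock libraries, as for Dusp8 with 10.6 to 12.2% in Pilo and 17.8 to 20.0% in Mock.

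The other phosphatases and the kinase cascades were described by lists. Of 19 other dual-specificity phosphatase genes tested, 2 rose and 6 fell in exonic counts, with a median log2 fold change of -0.06. Among all genes tested, 15.6% rose and 16.2% fell in exonic counts. Dusp11, an RNA phosphatase, fell by 0.90 ± 0.08 to 180 ± 13.6 CPM in Pilo, against 337 ± 27.2 CPM in Mock (edgeR adjusted p = 8.91e-06). Dusp12 fell by 0.68 ± 0.10 and Dusp18 by 0.70 ± 0.11 on the same scale (edgeR adjusted p = 0.000219 and 0.000324 in that order). Ptp4a1, a phosphatase of the PRL group, fell by 0.69 ± 0.18 in the exonic table (edgeR adjusted p = 0.0107), at 1.69 CPM in Pilo and 2.74 CPM in Mock. It rose by 0.38 ± 0.15 in the intronic counts of the second table (edgeR adjusted p = 0.0483), a call that ended under exonic scaling (0.13, adjusted p = 0.506). Within the second table its exonic minus intronic difference was -0.29 ± 0.10 and did not pass (edgeR adjusted p = 0.0527), so opposite changes were not shown within a table. Dusp9, a cytoplasmic ERK phosphatase that is not among the 10, was chosen after its values were seen and had 2.41 ± 0.70 CPM in Pilo and 1.44 ± 0.36 CPM in Mock (log2 fold change 0.75 ± 0.25, SE; edgeR adjusted p = 0.0337).

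The list counts below stand beside 15.6% of all genes higher and 16.2% lower in exonic counts. In exonic counts 2 of 8 other phosphatases of MAP kinases rose and none fell (median log2 fold change 0.06). Both are catalytic subunits of protein phosphatase 2A, Ppp2ca at 0.56 ± 0.09 and Ppp2cb at 0.37 ± 0.07 (SE; edgeR adjusted p = 0.000368 and 0.00157 in that order). Of 27 genes of the ERK cascade 9 rose and 2 fell (median 0.12). Rasgrp1, an activator of Ras, rose by 0.78 ± 0.07, to 443 ± 13.8 CPM in Pilo against 258 ± 13.9 CPM in Mock (edgeR adjusted p = 8.83e-06), while the adaptor Grb2 rose by 0.46 ± 0.08. The falls were Map2k2, a kinase of ERK, by 0.44 ± 0.09 and Nras by 0.31 ± 0.10. Of 29 genes of the JNK and p38 cascades 12 rose and 2 fell (median 0.15), with Mapkapk2, a kinase downstream of p38, at 0.91 ± 0.08, Map3k13 at 0.74 ± 0.08 and the adaptor Tab2 at 0.66 ± 0.07 (SE; edgeR adjusted p = 6.98e-06, 3.87e-05 and 1.85e-05 in that order). In exonic counts none of 4 genes of the ERK5 cascade passed by edgeR, and 1 had an unadjusted p under 0.05, against 41.6% of all genes.

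**Figure D5:**
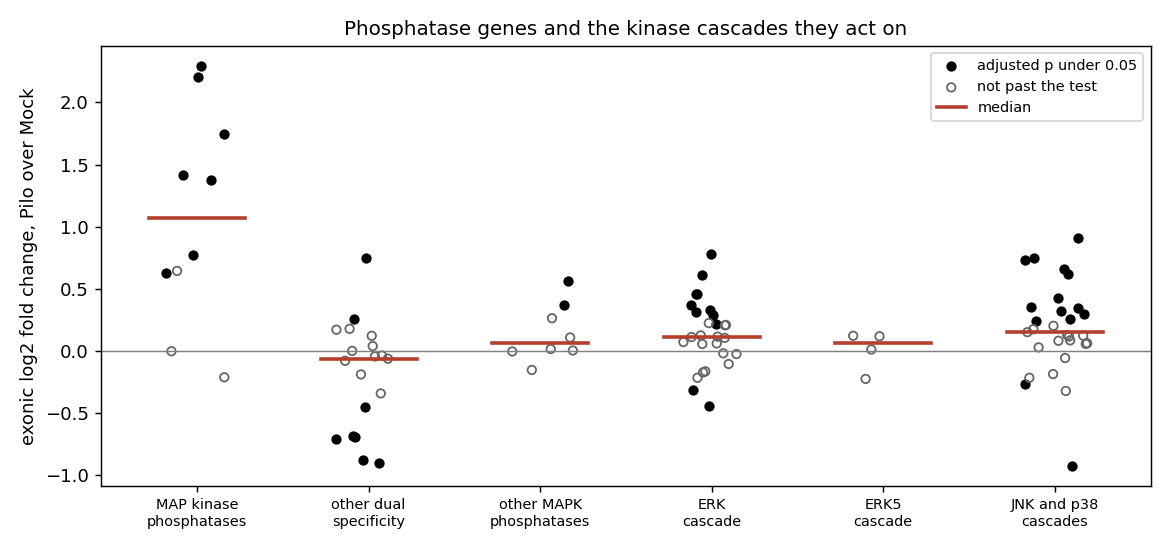
Exonic log2 fold change, Pilo over Mock, of the 10 genes and of the other gene lists; each point is a gene, filled where the adjusted p was under 0.05, and the line is the list's median. The medians are 1.07 for the 10 genes, -0.06 for other dual-specificity phosphatases, 0.06 for other phosphatases of MAP kinases, 0.12 for the ERK cascade and 0.15 for the JNK and p38 cascades.

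The genes whose exonic levels most resembled those of 3 of the phosphatases over the 8 libraries were taken from 14665 genes, by Pearson r, as a description that shares the group difference and the libraries. For Dusp1 they were Zfpm1 (r = 0.996), Egr1 (0.995), Nr4a1 (0.995) and Fos (0.994). For Dusp6 they were Gm37277, Gadd45g, Btg2 and Junb (r = 0.995, 0.995, 0.994 and 0.994 in that order). For Dusp8, whose exonic level did not separate the groups, they were Psmf1 (r = 0.959), P2rx3 (0.949), Gm46416 (0.947) and Filip1 (0.939). The SD of Dusp8 was only 3.53% of its mean in Pilo and 2.9% in Mock. These are the highest values picked from 14665 genes over 8 libraries, and whether they exceed chance was not tested.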

How the data were processed

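The authors deposited raw counts of reads, in an exonic table (Ensembl identifiers) and a table with separate exonic and intronic columns (Entrez identifiers). The genome mm10 and the tools edgeR, R 4.1.1, HTSeq 0.11.2, STAR 2.7.1a and Trimmomatic 0.39 come from the submitters' processing notes, with no roles given. Not given in the sources used here are the annotation release, the strand setting and the way introns were separated. Symbols matched 55144 of 55471 and 18507 of 18513 identifiers.

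Counts were tested in R 4.3.3 with edgeR 4.0.16 (TMM, filterByExpr with a minimum count of 10, robust quasi-likelihood F-test, Benjamini-Hochberg adjustment at 0.05 over all genes tested), with limma 3.58.1 loaded and DESeq2 1.42.0 as an alternative. Exact permutation tests used all 70 splits, and class ratios a pseudocount of 0.1 CPM. Deviations from group means correlated between same-numbered libraries (r = 0.379, 0.395, 0.409 and 0.387 in exonic counts, 0.392, 0.315, 0.407 and 0.463 in intronic counts), over the limit of 0.1, so the numbers are taken to pair the libraries; the main fit has no block. Numbers 2 and 3 were exchanged between tables by the correlation of deviations over 12850 genes (r 0.994 to 0.997, against -0.626 and -0.587 for the same numbers). Replicates differed beyond counting noise, and each of the 8 libraries entered as its own sample. All 10 genes were named in every comparison. Other pathway genes were the 3 of smallest p per list past the exonic test, plus any with opposite exonic and intronic calls, and further list members were chosen after their values were seen; a gene that the rule names in the ERK cascade is not reported here. Members, lists and motifs were chosen with earlier results of these data known.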

Additional observations from a re-analysis of the deposited data

Results flagged for a closer look

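In 5 of 60 groups of 4 libraries (10 genes by 3 measures by 2 groups), 1 library lay far from the other 3; chance alone flags about 1 in 20 groups. Mock 1 had the highest Mock exonic level of Dusp8 (88.47 CPM), the lowest Mock intronic level of Dusp1 (9.57 CPM) and the lowest Mock intronic share of Dusp10 (12.2%). Mock 4 had the lowest Mock intronic share of Dusp7 (29.5%) and the highest of Dusp16 (36.6%).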

How the results depend on the processing

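Precision is limited by 4 libraries a group and, for Dusp2 and Dusp10, by low counts. With the replicate number as a block, 1 of the 10 genes was lower in exonic counts (Dusp7) in place of 0, 4572 genes were higher in place of 2994 and 4443 lower in place of 3107. For the difference of regions under the block, 1 of the 10 was negative (Dusp6), 2680 genes were positive in place of 1756 and 2446 negative in place of 1664. Leaving out each library in turn gave 0 to 1 of the 10 lower in exonic counts and 0 to 1 negative for the difference of regions, with 7 to 8 higher and 3 to 4 positive. With introns scaled by the exonic factors, an alternative added after seeing the data, intronic counts had 1114 genes higher and 5173 lower, and the difference of regions was positive in 7 of the 10 genes and in 5822 genes and negative in 406. The cause of these moves was not tested. Other size factors, DESeq2, no filter on low counts and the exonic columns of the second table turned no direction among the called changes of the 10 genes; exonic Dusp8, which was not called, changed sign with other size factors (0.0084) and in DESeq2 (0.0085). Over 4 pairs an exact sign-flip permutation test cannot go below p = 0.125, and an exact test of 4 libraries against 3 cannot go below 0.0571, so the intronic shares and class ratios have no passing test there.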

Other observations

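Among genes of MAP kinases themselves, chosen after their values were seen, exonic Mapk3 (ERK1) was 39.2 ± 3.2 CPM in Pilo and 30.4 ± 2.8 CPM in Mock (SD, n = 4 each; edgeR adjusted p = 0.00731). The p38 genes Mapk11 and Mapk14 rose by 0.43 ± 0.09 and 0.30 ± 0.08 on the log2 scale in exonic counts (SE; edgeR adjusted p = 0.00366 and 0.0118 in that order). The JNK genes Mapk8, Mapk9 and Mapk10 did not pass in exonic counts (log2 fold changes 0.18, 0.06 and 0.13; edgeR adjusted p = 0.141, 0.591 and 0.513 in that order). Intronic Mapk7 (ERK5) fell by 0.92 ± 0.22 (edgeR adjusted p = 0.00319), while its exonic change of -0.22 ± 0.09 did not pass (edgeR adjusted p = 0.0891).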
